A study of Homo sapiens with 38 samples.

Results

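The human SRGAP2 and FAM72 genes lie head to head on chromosome 1 in 4 near-identical copies, and each copy has its own promoter between the starts of both genes. The 7 genes described are SRGAP2, SRGAP2B, SRGAP2C, FAM72A, FAM72B, FAM72C and FAM72D, of 20033 protein-coding genes. They form the pairs FAM72A/SRGAP2 (called the SRGAP2 pair), FAM72D/SRGAP2B (the SRGAP2B pair), FAM72B/SRGAP2C (the SRGAP2C pair) and FAM72C/SRGAP2D (the FAM72C pair), in which SRGAP2D is annotated as a pseudogene. Every peak within 5000 bp of an annotated transcript start of these genes was taken, which gave 36 of the 27085 peaks in 19 lists. The genes were chosen on the rank of their peaks in these same lists, so presence and rank are given as a description with no test.

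The lists came from CUT&RUN, in which an antibody directs a nuclease to a protein and the DNA cut out beside it is sequenced, in U2OS osteosarcoma cells. All lines carried a V5-Halo tag knocked in at endogenous Sp1 (the parental line, CTRL), and all were given 1 μg/ml doxycycline over 36 h together with a Halo dye ligand (JF549) and a SNAP dye ligand (JFX650), each at 5 nM, sorted, and then held in doxycycline for a further 36 h. The derived lines expressed a FLAG-tagged construct from the AAVS1 locus: Sp1 WT, the Sp1 DNA-binding domain (Sp1 DBD), an Sp1 DBD mutant, the EWS disordered region on the Sp1 DBD (EWS IDR-Sp1 DBD), the Sp1 disordered region on LacI or on the CTCF DBD (Sp1 IDR-LacI, Sp1 IDR-CTCF DBD), LacI, the CTCF DBD, or SNAP-NLS, a tag with no DNA-binding domain. Anti-FLAG was used in all 10 lines, with mouse and rabbit antibodies in separate CTRL samples. Rabbit and mouse anti-V5 (rV5, mV5), which report tagged endogenous Sp1, were used in CTRL and the Sp1 WT, Sp1 IDR-LacI and Sp1 IDR-CTCF DBD lines. Each list merged 2 biological replicates, so the 38 samples gave 19 lists that have no replicates of their own.

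SRGAP2 encodes an F-BAR protein of the SLIT-ROBO pathway that acts in neuronal migration and in the maturation of dendritic spines. SRGAP2B and SRGAP2C are partial, human-specific duplicates, and the truncated SRGAP2C protein can bind and inhibit SRGAP2. FAM72A binds the uracil DNA glycosylase UNG2 and lowers its level, and the FAM72 genes were duplicated together with SRGAP2. Sp1 is a zinc-finger factor that binds the GC box, GGGCGG, found in many promoters.

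In hg38 the SRGAP2 gene runs rightward from a main start at position 206203541 of chromosome 1 and FAM72A leftward from 206202839, a gap of 702 bp. The SRGAP2B and FAM72D starts, at 145095328 and 145095974, lie 646 bp apart on the opposite strands. The SRGAP2C and FAM72B starts, at 121184975 and 121184340, lie 635 bp apart. FAM72C starts at 143971986, and the annotated start of SRGAP2D, at 143975087, lies farther right, and the place that aligns with the SRGAP2 start, 671 bp from FAM72C, is the start of no annotated transcript. The sequences printed here show the part of each promoter that holds the Sp1 WT summits of the SRGAP2B, SRGAP2C and FAM72C pairs. In these bases the SRGAP2 and SRGAP2C copies differ from the others, while the SRGAP2B and FAM72C copies are identical. They are written 5′ to 3′ along the SRGAP2-type gene, from hg38, with the GC box in capitals (it reads CCGCCC on this strand). None overlaps an annotated exon, and the SRGAP2 copy stops after 135 bases, at the edge of the last exon of 1 short FAM72A transcript.
FAM72C/SRGAP2D, chr1:143972161-143972460, plus strand: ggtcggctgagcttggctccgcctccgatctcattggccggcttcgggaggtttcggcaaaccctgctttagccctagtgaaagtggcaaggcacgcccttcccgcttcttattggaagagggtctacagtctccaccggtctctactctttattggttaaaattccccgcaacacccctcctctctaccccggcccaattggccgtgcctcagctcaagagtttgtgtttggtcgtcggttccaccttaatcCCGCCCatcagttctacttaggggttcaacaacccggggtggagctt
FAM72D/SRGAP2B, chr1:145095529-145095828, minus strand: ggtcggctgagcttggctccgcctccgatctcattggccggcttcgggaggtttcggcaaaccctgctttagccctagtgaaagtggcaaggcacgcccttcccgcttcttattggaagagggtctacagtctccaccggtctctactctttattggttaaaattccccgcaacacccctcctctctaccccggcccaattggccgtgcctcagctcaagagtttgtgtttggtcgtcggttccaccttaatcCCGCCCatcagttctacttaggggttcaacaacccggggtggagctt
FAM72B/SRGAP2C, chr1:121184510-121184809, plus strand: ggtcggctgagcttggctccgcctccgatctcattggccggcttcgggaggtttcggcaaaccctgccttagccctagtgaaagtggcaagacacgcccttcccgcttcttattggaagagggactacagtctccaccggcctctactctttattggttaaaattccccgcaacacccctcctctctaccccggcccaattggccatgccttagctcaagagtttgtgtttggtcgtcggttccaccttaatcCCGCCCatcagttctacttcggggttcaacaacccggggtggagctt
FAM72A/SRGAP2, chr1:206203045-206203179, plus strand: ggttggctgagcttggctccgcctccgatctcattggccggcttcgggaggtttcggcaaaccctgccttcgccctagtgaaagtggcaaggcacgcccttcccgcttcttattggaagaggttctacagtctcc

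With positions counted from 1 at the first base printed and the FAM72C copy as the reference, the SRGAP2B copy had 0 substitutions over the 300 bases. The SRGAP2C copy had 7, which were T68C, G92A, T124A, T141C, G206A, C212T and A273C. The SRGAP2 copy had 6, of which C4T, T68C, A71C and G123T fall in the bases printed and T164C and C212T in the bases after them. No substitution fell in the GC box.

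The copies were also compared over the whole region covered by the Sp1 WT peaks. Over its 2859 aligned bases, the SRGAP2B and FAM72C copies differed by 2 substitutions (99.93% identity), with an identical stretch of 1658 bp. The SRGAP2 copy differed from FAM72C by 11 substitutions, from SRGAP2B by 13 and from SRGAP2C by 19, with longest identical stretches of 1027, 813 and 418 bp. The SRGAP2C copy stood apart from the others by 16 to 19 substitutions and 10 gap bases, at an identity of 99.34 to 99.44%. The region held 11 GC boxes, and all 11 were at the same aligned place in all 4 copies. The longer form GGGGCGGGG, which contains a GC box, occurred 0 times in the peaks. Thus no difference in number or place of GC boxes separated the copies.

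All 4 pairs had a peak in the Sp1 WT, Sp1 DBD and EWS IDR-Sp1 DBD FLAG lists, that is, with each construct that carried an intact Sp1 DBD. No pair had a peak in the other FLAG lists, from Sp1 IDR-LacI, Sp1 IDR-CTCF DBD, LacI, the CTCF DBD, the Sp1 DBD mutant, SNAP-NLS and CTRL with either antibody. These 8 lists were short, and the CTCF DBD and Sp1 IDR-CTCF DBD lists reached 2.44% and 0.779% of protein-coding genes, the others at most 0.00499%. With anti-V5, the SRGAP2C pair had a peak in 8 of 8 lists, the FAM72C pair in 6, and the SRGAP2 and SRGAP2B pairs in 5 each. The absences were mostly with the rabbit antibody, which gave a peak at 9 of 16 combinations of pair and list against 15 of 16 with the mouse antibody. In the Sp1 WT and Sp1 IDR-LacI lines, rV5 gave the SRGAP2C pair alone, while mV5 in the same lines gave all 4. The Sp1 IDR-CTCF DBD rV5 list lacked only SRGAP2B, and the CTRL mV5 list lacked only SRGAP2. No pair had more than 1 peak in a list.

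By gene, all 7 members had a peak in the Sp1 WT FLAG list, in which 26.1% of protein-coding genes had one by the same rule. All 7 also had a peak in the Sp1 DBD list (17.7% of genes), the EWS IDR-Sp1 DBD list (12.5%) and the CTRL rV5 list (11.7%). In the CTRL mV5 list 5 of 7 had a peak (10.9% of genes). Both genes of the SRGAP2C pair were the 2 members with a peak in the Sp1 WT rV5 list (9.73% of genes) and in the Sp1 IDR-LacI rV5 list (12.4%). All 7 had a peak in the Sp1 WT mV5 list (7.70% of genes), the Sp1 IDR-LacI mV5 list (9.83%) and the Sp1 IDR-CTCF DBD mV5 list (8.25%), and 5 of 7 in the Sp1 IDR-CTCF DBD rV5 list (12.4%). In each of the 4 lines the rabbit V5 list thus covered more genes than the mouse V5 list, and in the 3 induced lines it held fewer of these pairs. SRGAP2C and FAM72B had a peak in 11 of the 19 lists, a number reached by 2.62% of protein-coding genes. FAM72C had one in 9 lists, a number reached by 6.81% of genes, and SRGAP2, FAM72A, SRGAP2B and FAM72D in 8, reached by 8.29%. Genes of a pair share 1 peak, so the members are not independent, and the rule that chose them used these lists.

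**Figure D1:**
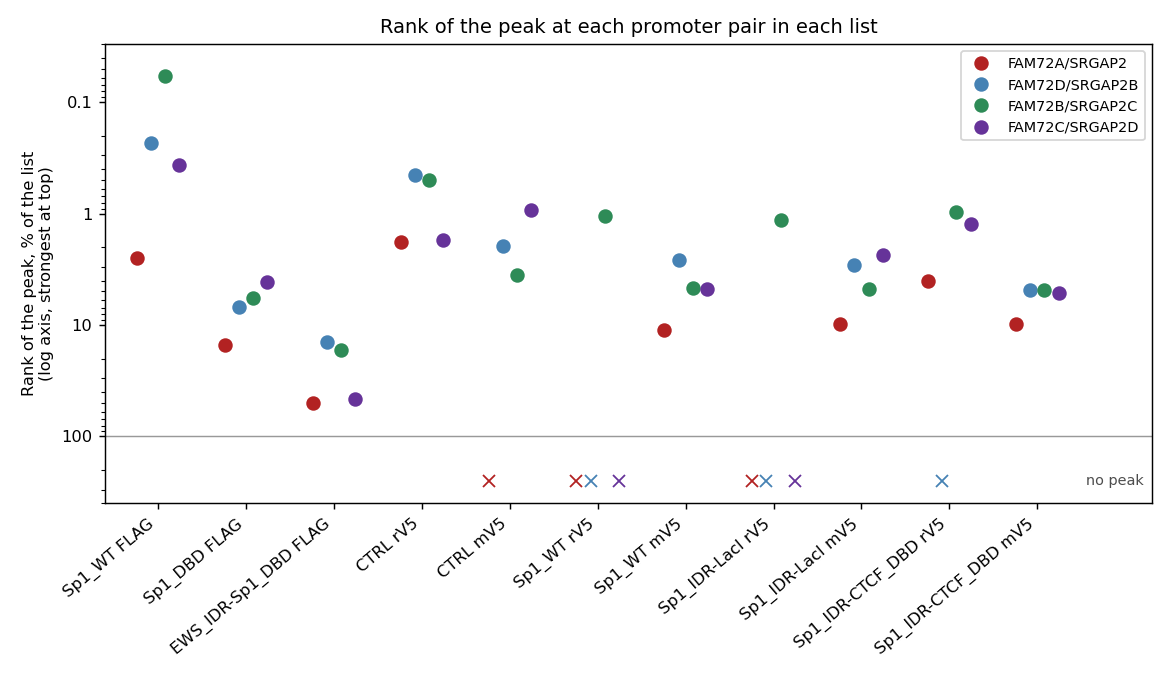
Rank of the peak at each pair as a percent of its list (y axis, log scale, strongest at the top) in the 11 lists with a peak at any pair (x axis). Points are single lists without error, and crosses mark lists without a peak. Points run from 0.0582% for SRGAP2C in Sp1 WT FLAG to 50.0% for SRGAP2 in EWS IDR-Sp1 DBD FLAG, and the SRGAP2 point is the lowest in each of the 8 lists that have one.

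Peaks were ranked by the −log10 p-value of the merged peak, which in all 27085 peaks equalled the lower of the replicate values. Of the 36 peaks, 7 were in the top 1% of their list, 25 in the top 5% and 30 in the top 10%. Each median rank was taken over the lists with a peak at that pair, so the medians cover different lists. It was 2.36% for the FAM72C pair (9 lists), 2.75% for SRGAP2B (8), 3.55% for SRGAP2C (11) and 9.81% for SRGAP2 (8). Over all protein-coding genes with a peak, the median ranged from 44.8% in Sp1 WT FLAG to 48.5% in Sp1 WT mV5. Of 886 protein-coding head-to-head pairs with starts at most 1000 bp apart, 3 of the member pairs among them, 43.5% had a Sp1 WT FLAG peak. The median rank of those with a peak was 34.8%. The members were chosen on rank, so a higher rank than in such groups follows from the choice.

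In the Sp1 WT FLAG list of 5151 peaks, SRGAP2C ranked 3, SRGAP2B 12, FAM72C 19 and SRGAP2 129. The SRGAP2C peak had a −log10 p of 133.3 in 1 replicate and 131.6 in the other. The SRGAP2B peak had 105.3 and 132.2, and the FAM72C peak 97.44 and 137.2. These 3 copies overlapped, and their order reversed between replicates, with SRGAP2C highest in 1 and FAM72C in the other. The SRGAP2 peak had 66.72 and 95.05, both below every value of the other copies. At the merged value it reached 50.7% of the SRGAP2C peak. Next in rank to these peaks were those at APLP1, an amyloid precursor-like gene, at rank 4 (128.9), RAB4B, a small GTPase of endosomal recycling, at rank 11 (105.6), and CELF5, an RNA-binding protein, at rank 18 (97.50), whose summit windows had 0% words of 31 bases that occur more than once in the genome. The peak at rank 2 (152.1) had 100% such words and lay 244539 bp from the nearest protein-coding start.

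In the Sp1 DBD list of 3277 peaks the same copies ranked lower. FAM72C was at rank 136 with 46.22 in both replicates, SRGAP2C at 186 with 49.41 and 42.84, and SRGAP2B at 226 with 40.68 and 43.13. SRGAP2 was at rank 496 with 39.43 and 30.66, again below all other values. With the EWS IDR on the same DBD, the list of 2535 peaks had SRGAP2B at rank 363 (28.47 and 33.31), SRGAP2C at 424 (26.75 and 37.05), FAM72C at 1178 (16.81 and 28.06) and SRGAP2 at 1268 (16.09 and 24.27). There SRGAP2 was lowest in both replicates, but its higher value lay above the lower FAM72C value. Values of −log10 p grow with read depth, which was not analysed here, so they were compared only within a list, and the lower ranks with the DBD and EWS constructs are positions relative to the other peaks of those lists.

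**Figure D2:**
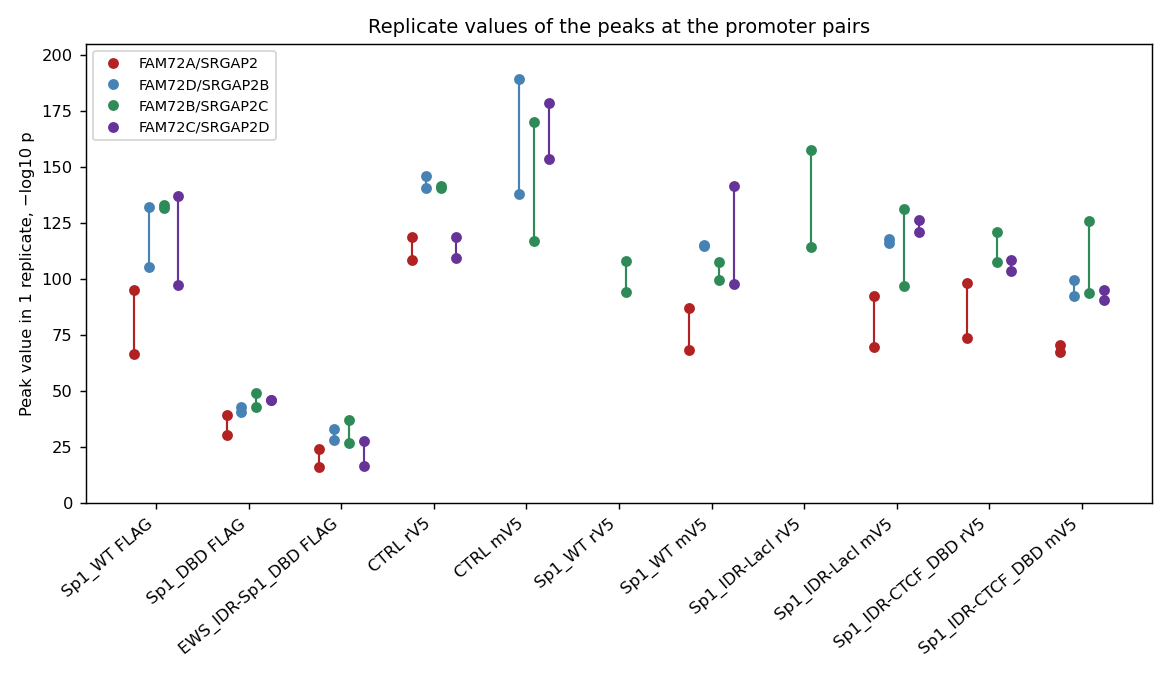
Peak value in each replicate (−log10 p, y axis, from 0) for the 4 pairs in the 11 lists (x axis). Points are the 2 replicates and lines join them, and in 6 lists both SRGAP2 points lie below every point of the other pairs.

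Endogenous Sp1 gave peaks at these promoters too, and in the parental line the order of the copies differed between the rabbit and mouse antibodies. In the parental line with rV5 (1987 peaks), SRGAP2B ranked 9 (145.9 and 140.7) and SRGAP2C 10 (140.7 and 141.7). FAM72C ranked 34 (118.7 and 109.7) and SRGAP2 36 (119.1 and 108.6), and these 2 could not be separated by their replicates, while both lay below the first 2. With mV5 (1830 peaks), FAM72C ranked 17 (153.5 and 178.6), SRGAP2B 36 (138.1 and 189.4) and SRGAP2C 65 (117.0 and 170.0). All 3 overlapped, and no SRGAP2 peak was listed.

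In the 3 induced lines, mV5 gave a peak at all 4 pairs. In the Sp1 WT line (1332 peaks) SRGAP2B ranked 35 (114.8 and 115.1), SRGAP2C 62 (99.49 and 107.6), FAM72C 64 (98.00 and 141.8) and SRGAP2 149 (68.52 and 87.30). In the Sp1 IDR-LacI line (1739 peaks) FAM72C ranked 41 (121.2 and 126.5), SRGAP2B 50 (116.0 and 118.0), SRGAP2C 83 (97.18 and 131.5) and SRGAP2 170 (92.36 and 70.02). In the Sp1 IDR-CTCF DBD line (1413 peaks) SRGAP2C ranked 68 (93.92 and 126.0), SRGAP2B 69 (99.54 and 92.42), FAM72C 73 (95.27 and 90.64) and SRGAP2 139 (67.51 and 70.68). In each of these lists both SRGAP2 values were below all others, and the other copies had no order that held in all 3 lists.

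With rV5 in the same lines, the SRGAP2C pair ranked 19 of 1790 in the Sp1 WT line (108.2 and 94.53), 24 of 2126 in the Sp1 IDR-LacI line (114.6 and 157.9) and 21 of 2172 in the Sp1 IDR-CTCF DBD line (121.1 and 107.8). In the last list FAM72C ranked 27 (108.7 and 103.9) and SRGAP2 88 (98.39 and 73.91). A copy that was missing from a list was thus missing beside another copy near the top of it.

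Over the lists, the SRGAP2 pair was the lowest by merged value in 8 of 8 lists that had it, the lowest in both replicates in 7, and below every replicate value of the other copies in 6. SRGAP2C was highest in 5 of 11 lists, SRGAP2B in 3, FAM72C in 3 and SRGAP2 in 0. The SRGAP2 value was between 50.7% (Sp1 WT FLAG) and 77.2% (CTRL rV5) of the highest copy in the 7 lists with all 4 pairs. The higher replicate value of a peak was 1.00 to 1.67 times the lower (median 1.16), and the order of SRGAP2B, SRGAP2C and FAM72C changed between lists and between replicates. With 2 replicates a copy, a two-sided exact permutation test of 2 against 2 unpaired values cannot go below 0.333, and none was run. The 8 lists come from 6 lines of 1 parental clone and are not independent.

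**Figure D3:**
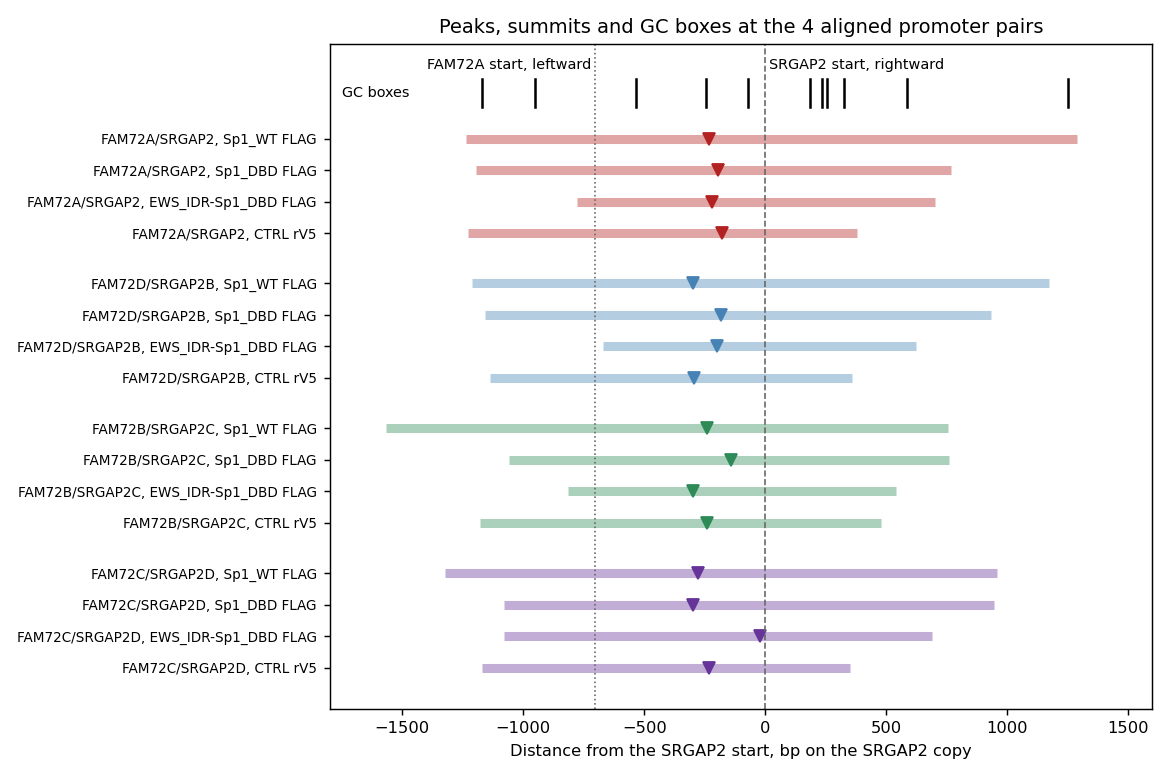
Peaks (bars), summits (triangles) and GC boxes (ticks) of the 4 copies in 4 lists, placed by their alignment, with distance from the SRGAP2 start in bp (x axis). Dashed and dotted lines mark the SRGAP2 and FAM72A starts of the SRGAP2 copy, and all merged summits shown lie between them.

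The peaks were wide, from 995 to 2528 bp, and each contained an annotated start. The Sp1 WT FLAG peaks ran over 206202304-206204831 (SRGAP2), 145094160-145096545 (SRGAP2B), 121183437-121185770 (SRGAP2C) and 143971335-143973613 (FAM72C) of chromosome 1. They were wider than 95.5 to 96.8% of that list, whose median width was 941 bp. The nearest peaks outside the rule were 50303 bp from a start at SRGAP2 and 237892 to 509945 bp at the other pairs, so the limit of 5000 bp decided no peak. The Sp1 WT summits were at 206203310, 145095632, 121184764 and 143972378. Placed on the SRGAP2 copy, the 36 merged summits, each within 1 bp of the midpoint of the 2 replicate summits, lay 21 to 340 bp to the left of the SRGAP2 start, on the side of FAM72. Their median distance was 209 bp in the SRGAP2 copy, 242 bp in SRGAP2C, 295 bp in SRGAP2B and 296 bp in FAM72C, and the GC box in the printed sequences begins 243 bp to the left of the start. Of the 72 replicate summits, 71 lay to the left and 1 to the right. That one belonged to the FAM72C peak in EWS IDR-Sp1 DBD, whose replicate summits lay 130 bp to the right and 171 bp to the left of the start. Replicate summits of a peak were a median of 24.0 bp apart and at most 301 bp, in that peak.

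The window of 100 bp to either side of the summit held 1 GC box in 35 of the 36 peaks. The exception was SRGAP2C in Sp1 WT rV5, whose summit was 340 bp from the start. Over all Sp1 WT FLAG peaks, 70.2% had at least 1 GC box in that window, with a mean of 1.60, and in the CTRL lists 81.4% (rV5) and 84.4% (mV5) had one, with means of 2.13 and 2.36. The windows at these promoters, with 1 GC box or none, thus held fewer than the mean of those lists. The median was 1 in Sp1 WT FLAG, equal to a window with 1 box, and 2 in CTRL rV5 and CTRL mV5. Box counts of whole peaks were not compared with other peaks. In RefSeq promoters (hg38, 250 bases before to 50 after each start), GGGCGG on either strand was found in 45.0% of 35116 promoters and in 11 of 13 member promoters. GGGGCGGGG was found in 15.7% and in 0 of 13. CCAAT, the box bound by NF-Y, was found in 34.6% and in 12 of 13, and it occurred 5 times on either strand in each of the 300-base sequences above. The 13 promoters belong to 6 of the 7 members (FAM72B was not matched) and are copies of 1 another, so these counts are not independent.

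**Figure D4:**
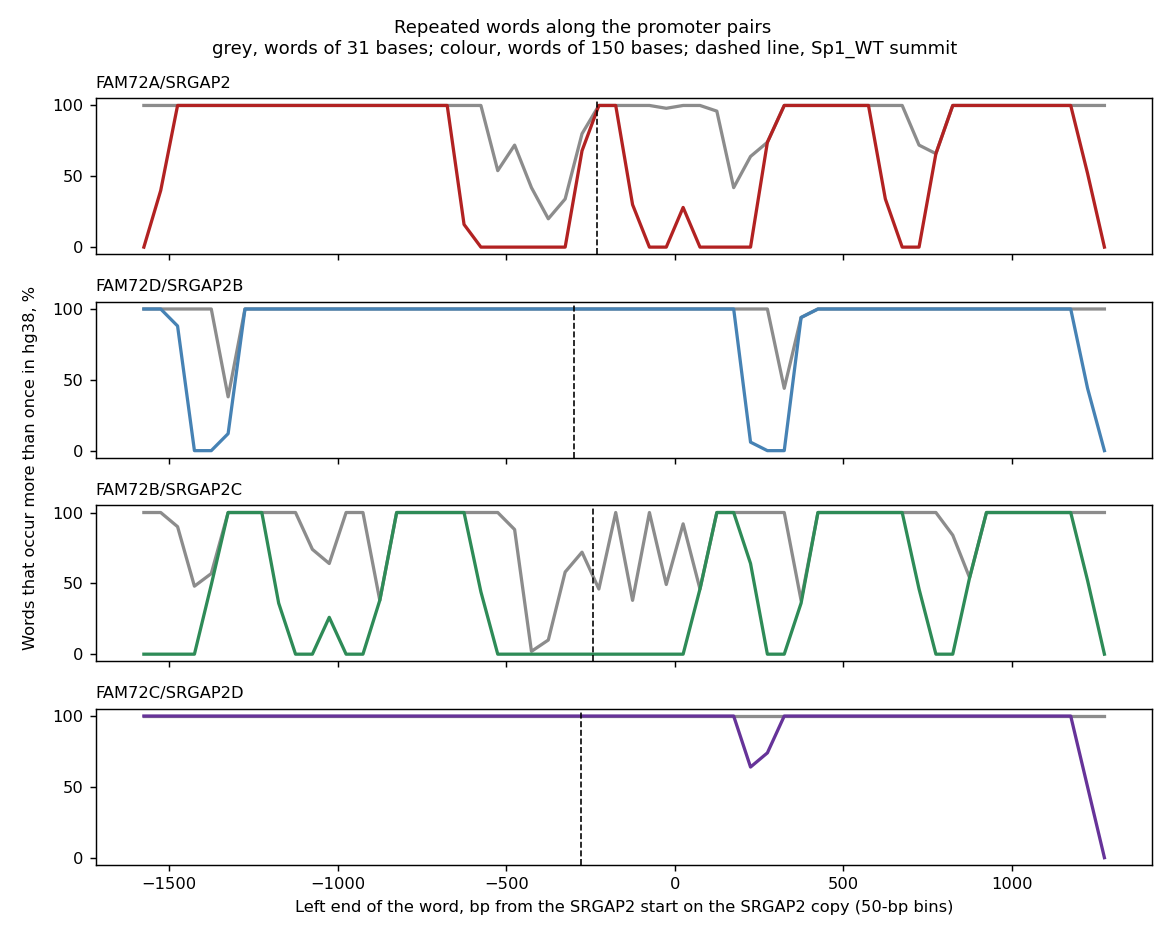
Share of words of 31 bases (grey) and 150 bases (colour) that occur more than once in hg38 (y axis, %), in bins of 50 bp by the left end of the word (x axis, bp from the SRGAP2 start), for the 4 copies. The 150-base line stays at 100 across the Sp1 WT summit (dashed line) in SRGAP2B and FAM72C and at 0 in SRGAP2C, and SRGAP2 moves between both.

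The copies differed in how far their sequence can be told from the others. Around the Sp1 WT summit, 100% of words of 31 bases in the SRGAP2B and FAM72C copies occurred more than once in the genome, 85.4% in SRGAP2 and 63.7% in SRGAP2C. With words of 150 bases, the length of the sequenced reads, the share was 100% in SRGAP2B and FAM72C, 9.62% in SRGAP2 and 0% in SRGAP2C. These shares count only words lying wholly within 100 bp to either side of the summit. The SRGAP2 share depended on where a word began, with the Sp1 WT summit at -231 bp from the SRGAP2 start. Of its words of 150 bases, 0% were repeated in the 50-bp bin at -350 bp and 68.0% in that at -300 bp. In the bins at -250 and -200 bp 100% were repeated. Over the whole Sp1 WT peak the share with words of 150 bases was 98.5% in FAM72C, 93.3% in SRGAP2B, 62.5% in SRGAP2 and 40.1% in SRGAP2C. All repeats lay in the other pairs, with 0 words found elsewhere in the genome. Hence an exact stretch of 150 bases around the SRGAP2B summit matched FAM72C equally well, and one around the SRGAP2C summit matched SRGAP2C alone. With words of 50 bases the share around the SRGAP2C summit was 34.2%. The reads were paired and trimmed of adapters, so shorter reads or their mates could match otherwise, which was not tested.

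These shares stand beside the ranks as follows. SRGAP2C, with the lowest share of repeated words at the Sp1 WT summit, was present in all 11 lists that had any copy. SRGAP2B and FAM72C both had repeated words of 100% at all their summits, with SRGAP2B in 8 lists and 1 of 4 rabbit V5 lists, and FAM72C in 9 and 2 of 4. SRGAP2, the copy with the lowest values, had a median of 90.6% with words of 31 bases over its summits and was in 8 lists and 2 of 4 rabbit V5 lists. How the aligner divided reads that match several copies was not tested, and no mapping-quality filter is given in the sources used here, so the split of signal between SRGAP2B and FAM72C cannot be read as binding of either. In the Sp1 WT FLAG list 6.83% of all peaks, and 9 of the first 20, had a summit window with at least 50% repeated words. The SRGAP2C, SRGAP2B and FAM72C peaks were among those 9. The number of copies of each pair in the U2OS genome was not measured here.

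Genes that act with the members had Sp1 WT FLAG peaks at a median rank near that of all genes. Of 18 genes of the SRGAP family, the SLIT-ROBO pathway and FAM72A partners, 8 had a peak in Sp1 WT FLAG (44.4%), 4 in Sp1 DBD (22.2%) and 3 in EWS IDR-Sp1 DBD (16.7%), with 3 in each CTRL V5 list, against 26.1%, 17.7%, 12.5%, 11.7% and 10.9% of all genes. The highest in Sp1 WT FLAG were ROBO3, an axon guidance receptor, at rank 921 (33.9 and 66.5), ARHGAP4 at 1053 (31.4 and 51.0), RHOA at 1314 (28.1 and 46.1) and SRGAP1, a paralog of SRGAP2, at 1616 (25.3 and 43.4). The median rank of the 8 was 43.2%, beside 44.8% over all genes with a peak. In Sp1 DBD it was 35.2%, beside 46.7%. In CTRL rV5 and mV5 it was 66.3% and 64.3%, beside 47.0% and 46.9%.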

How the data were processed

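CUT&RUN was done in 38 samples, which the labels place in 19 groups (a line with an antibody) of 2 biological replicates. By the methods and the submitters' processing notes, the authors used cutadapt 2.6 for trimming, Bowtie2 2.3.5.1 in local mode for alignment to hg38, SAMtools 1.9 to drop duplicate reads and MACS3 (version 2.2.7.1 in the notes) for peaks, with the control replicates merged as background. Peaks with an IDR, a rate of irreproducible discovery, above 0.1 were left out. The authors deposited 1 list for each combination, with the −log10 p-value of the merged peak and of both replicates, and a score, the −log10 of the IDR. The lists do not say which replicate of the labels stands in which column, and read numbers of the libraries were not used here, so no precision from depth is given. The 6 deposited tables of differential regions hold the authors' own comparisons and were not used.

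Peaks were ranked by merged value and assigned to GENCODE 44 transcript starts within 5000 bp of their nearest base. Distances on the copies were set by a MAFFT 7.526 alignment. Repeated words were counted over hg38 without alternate sequences. No test was run, since each list has no replicates of its own and the members and gene lists were chosen with earlier results of these data known. Named genes were the members and SRGAP2D, at most 4 of each gene list by Sp1 WT rank, and the genes of the peaks next in rank, of which some are not reported here. Alternatives were other distances, IDR limits, transcript sets, rankings, windows, motifs and word lengths. Python 3.11.15, pysam 0.24.0, NumPy 2.4.6, numba 0.67.0 and matplotlib 3.10.9 were used, and word counts, distances and motif counts were tested on simulated data.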

Additional observations from a re-analysis of the deposited data

How the results depend on the processing

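The number of lists with a peak at each pair and of members with a peak in the Sp1 WT, Sp1 DBD and CTRL lists stayed within 1.5 times its value with distances of 1000 or 500 bp, with distances from the summit, with IDR limits of 0.05 and 0.01, and with protein-coding transcripts. In EWS IDR-Sp1 DBD, 4 of 7 members kept a peak at an IDR of at most 0.01, without the SRGAP2 and FAM72C pairs. Ranked by 1 replicate alone in Sp1 WT FLAG, SRGAP2 was at 2.52 to 2.97% of the list, SRGAP2B at 0.252 to 0.330%, SRGAP2C at 0.0582 to 0.388% and FAM72C at 0.252 to 0.388%. Ranked by the IDR score, SRGAP2 was at 2.06%, SRGAP2C at 0.544% and FAM72C at 0.252%, so that SRGAP2C was no longer first among the copies and SRGAP2 stayed last. The GC boxes near the Sp1 WT summit were 3 within 250 bp in SRGAP2B and 2 in each other copy, 11 in the whole peak in SRGAP2 and 10 in each other, and 0 of the longer form in all. Among words lying wholly in the Sp1 WT summit window, repeated words fell in SRGAP2 to 73.0, 53.9 and 9.62% with 50, 100 and 150 bases. In SRGAP2C they fell to 34.2, 0 and 0%, and they were 100% in SRGAP2B and FAM72C at every length. No paired analysis was possible because no result comes from a test. Values of the copies in the same replicate column of a list are given side by side in the report.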

Other observations

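In a chosen list of 38 other recently duplicated human genes, which does not cover all duplicated genes, none but SRGAP2D had a Sp1 WT FLAG peak ranked higher than 678. Of these 38 genes, with SRGAP2D counted, 8 had a Sp1 WT FLAG peak (21.1%, against 26.1% of all protein-coding genes), at a median rank of 38.4%. SRGAP2D was 1 of them, through the peak of the FAM72C pair. CORO1A, an actin regulator, and BOLA2B, of iron-sulfur cluster biology, shared a peak at rank 678 (39.3 and 61.1), and BOLA2 had 1 at rank 1958 (22.2 and 58.0). The summit windows at BOLA2 and BOLA2B had 100% repeated words, as at SRGAP2B and FAM72C, with ranks far below theirs. The share of genes of the list with a peak was 15.8% in Sp1 DBD, 5.26% in EWS IDR-Sp1 DBD, 10.5% in CTRL rV5 and 2.63% in CTRL mV5, where SRGAP2D was the only gene.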
